A study of Mus musculus with 2 samples.

Results

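Replication-dependent histone genes were examined in CD4 T cells of mouse spleen that had or lacked Taf7, which is part of TFIID, the complex that recognises core promoters. Members were the transcript clusters, the probe groups of the array, that carry exactly 1 gene symbol of the H1f1 to H1f5, H2ac, H2bc, H3c or H4c series, with the cluster of highest mean taken for each gene. This gave 26 of the 19938 genes measured: 4 of H1, 4 of H2A, 9 of H2B, 3 of H3 and 6 of H4. The reference gene table holds 63 genes of this naming, of which 36 appeared in no cluster of their own but in clusters that name several histone genes, and 1 in no named cluster. The rule used symbols and the mean of both arrays, not the difference between the genotypes.

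The study hybridised total RNA of a heterozygous (Taf7 +/-) and a knockout (Taf7 -/-) sample, each on 1 array. Both genotypes carried 1 floxed and 1 null Taf7 allele in mice of C57/BL6 and 129 mixed descent; the knockout also carried the 8EIII-cre transgene and the heterozygote did not. Control cells therefore had a single working copy of Taf7, and no sample with both copies was analysed here. The cells had been sorted for high surface TCRbeta and CD4 and were enriched for naive cells by low CD44; the sources used here do not state age, the number of mice behind each sample or the cells in which the transgene is active. With 1 array a genotype no difference has a replicate check, no test between the genotypes was possible and none is reported. Values are log2 gene-level signals, and differences are knockout minus heterozygote on the log2 scale. Their precision is limited by having so few arrays.

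Replication-dependent histones form the nucleosome core of H2A, H2B, H3 and H4 and the H1 linker that binds the DNA between nucleosomes. Their genes lie in a large and a smaller cluster, are transcribed mainly while DNA is copied, and give mRNAs that lack introns and usually end in a stem-loop, which the protein SLBP binds, in place of a poly(A) tail. Cells that have stopped dividing, such as naive T cells, make few of these mRNAs, and some histone genes can then give polyadenylated transcripts. The labelling named for these arrays, the whole transcript sense target assay, starts from random primers, so a missing poly(A) tail does not keep a transcript from being labelled.

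On these arrays Taf7 itself was at 8.34 (heterozygote) and 7.79 (knockout), a difference of -0.55. Whether its probes lie within the deleted part is unknown here. Genes were counted where their mean over both arrays reached 7.71, the middle (50th percentile) of the row means, which 10457 genes reached and 16 of the 26 histone genes did. The median difference was -0.05 over the genes above this filter and 0.14 over those below it, so weak and strong signals were offset differently. All 8 CD4 T cell markers measured were above the filter. Of them 5 were lower in the knockout and 3 higher, or 37.5% higher against 40.9% of all genes above the filter. The marker median was -0.09. Cd3e was at 13.49 and 13.50 and Cd4 at 12.99 and 12.77; here and further on, the heterozygote is given first. The lowest by difference were Cd3d at -0.50 and Cd28 at -0.42, and the highest was Lef1 at 0.06.

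Promoters of histone genes at the high and the low end of their families are shown first, because TFIID acts at the start of the gene and because H1f2 and the H2B genes carry the differences described after them. The sequences are the 250 bases before the gene start, 5′ to 3′, from RefSeq, build GRCm38.p6. Capitals mark exact matches, on either strand, to TATAAA (the TATA box), ATTTGCAT (the octamer of H2B promoters), CCAAT (the box bound by the factor NF-Y) and AAACACA (the H1 box of H1 promoters). H1f2 and H1f3 are the highest and the lowest H1 gene by difference, and H2bc3 and H2bc18 the highest and the lowest H2B gene above the filter that the promoter table holds.
H1f2 (chr13:23738557-23738806, plus strand): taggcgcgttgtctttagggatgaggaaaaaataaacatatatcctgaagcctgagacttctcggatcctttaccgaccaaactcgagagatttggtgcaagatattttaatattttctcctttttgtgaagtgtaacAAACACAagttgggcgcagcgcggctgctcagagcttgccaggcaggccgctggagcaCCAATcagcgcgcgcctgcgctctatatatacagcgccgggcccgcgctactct
H1f3 (chr13:23554782-23555031, plus strand): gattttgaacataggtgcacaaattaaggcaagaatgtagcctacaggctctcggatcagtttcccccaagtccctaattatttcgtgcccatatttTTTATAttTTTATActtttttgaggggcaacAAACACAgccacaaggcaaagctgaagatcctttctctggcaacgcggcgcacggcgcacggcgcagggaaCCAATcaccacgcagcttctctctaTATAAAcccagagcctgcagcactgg
H2bc3 (chr13:23746484-23746733, plus strand): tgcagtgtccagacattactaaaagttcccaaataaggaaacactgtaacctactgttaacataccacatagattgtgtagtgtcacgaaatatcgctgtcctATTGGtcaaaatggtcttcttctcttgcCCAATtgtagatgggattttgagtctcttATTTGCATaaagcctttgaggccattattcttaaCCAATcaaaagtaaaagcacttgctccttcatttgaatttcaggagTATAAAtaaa
H2bc18 (chr3:96269450-96269699, plus strand): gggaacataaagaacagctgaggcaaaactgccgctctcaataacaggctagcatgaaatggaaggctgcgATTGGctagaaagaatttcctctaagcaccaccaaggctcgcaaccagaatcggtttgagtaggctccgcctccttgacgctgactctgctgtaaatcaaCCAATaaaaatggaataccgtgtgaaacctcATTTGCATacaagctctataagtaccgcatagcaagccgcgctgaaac

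The promoter table holds 22 of the 26 histone genes, and H2bc4, H2bc21, H3c7 and H4c14 are not among them. TATAAA stood in 14 of the 22 promoters (63.6%), against 12.4% of all 32851 promoters of the table. Matches were counted on either strand and at any distance from the start. Some TATAAA matches lay far from it, beginning at position -250 in H4c6, -137 in H4c9 and, on the minus strand, -212 in H2bc22. The count is thus of letters and not of placed TATA boxes. CCAAT stood in 18 (81.8%, against 33.8% of all), the octamer in 8 (36.4%, against 1.60%) and the H1 box in 7 (31.8%, against 6.25%). No base of these 22 promoters belonged to matches of more than 1 motif. By family, the octamer was in 5 of 7 H2B and 3 of 4 H2A promoters and in no H1, H3 or H4 promoter, and the H1 box was in 3 of 4 H1, 2 of 4 H2A and 2 of 7 H2B promoters. H2A and H2B genes can face each other across 1 shared promoter, so their octamers may not all be separate sites.

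The differences were then set beside the motifs. The 14 genes with TATAAA had a median difference of 0.10 and the 8 without it 0.16; for the octamer these medians were 0.10 and 0.12, for CCAAT 0.11 and 0.11, and for the H1 box 0.15 and 0.10. Of the genes printed above, H1f2 and H2bc18 have no exact match to TATAAA, and they lay at opposite ends, at 0.60 and -0.35. Both hold TATA-like letters near the start, tatatata in H1f2 and tataag in H2bc18, which the exact search does not count. Genes without TATAAA are therefore not shown to lack a TATA box. H1f3 has 3 matches, from position -26 and, on the minus strand, from -145 and -153. It was at -0.22, below the filter. H2bc3 has 1 match and was at 0.28. Among H2B genes, H2bc18 with the octamer was the lowest of the 7 in the table, and H2bc3 with the octamer was the highest. A match is a description of these letters and not a shown binding site.

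Among the histone genes above the filter the knockout array was mostly the higher one, by small amounts, with H2bc4 and H1f2 well above the rest. Of the 16 genes above the filter 12 were higher in the knockout and 4 lower, or 75% higher, whereas 40.9% of all genes above the filter were higher and 59.1% lower. Their median difference was 0.12, against -0.05 for all genes above the filter. After centring on the median of the genes above the filter (centring, further on), removal of a trend with signal (loess) or quantile normalization, 14 of the 16 were higher, against 50%, 48.0% and 51.7% of all genes above the filter, and the median was 0.17, 0.13 and 0.17. Centring instead on the median of all genes measured, 0.06, left 10 of the 16 higher (62.5%), against 30.5% of all genes above the filter, with a median of 0.06. Total RNA of a cell population was measured, so more cells with such a transcript and more transcript in each cell cannot be told apart.

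At fixed sizes, 2 of the 16 genes were higher in the knockout by 1.5-fold or more, and none was lower by that much. Of all genes above the filter, 0.449% were at least 1.5-fold higher and 3.17% at least 1.5-fold lower. H2bc4 was the only histone gene at least 2-fold higher, a size that 0.0383% of all genes reached, and none was 2-fold lower, against 0.325% of all genes. After centring on all genes measured H1f2 was at 0.54, short of 1.5-fold, and 1 gene, H2bc4, was left past it. Without H2bc4 the median of the genes above the filter was 0.11.

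**Figure D1:**
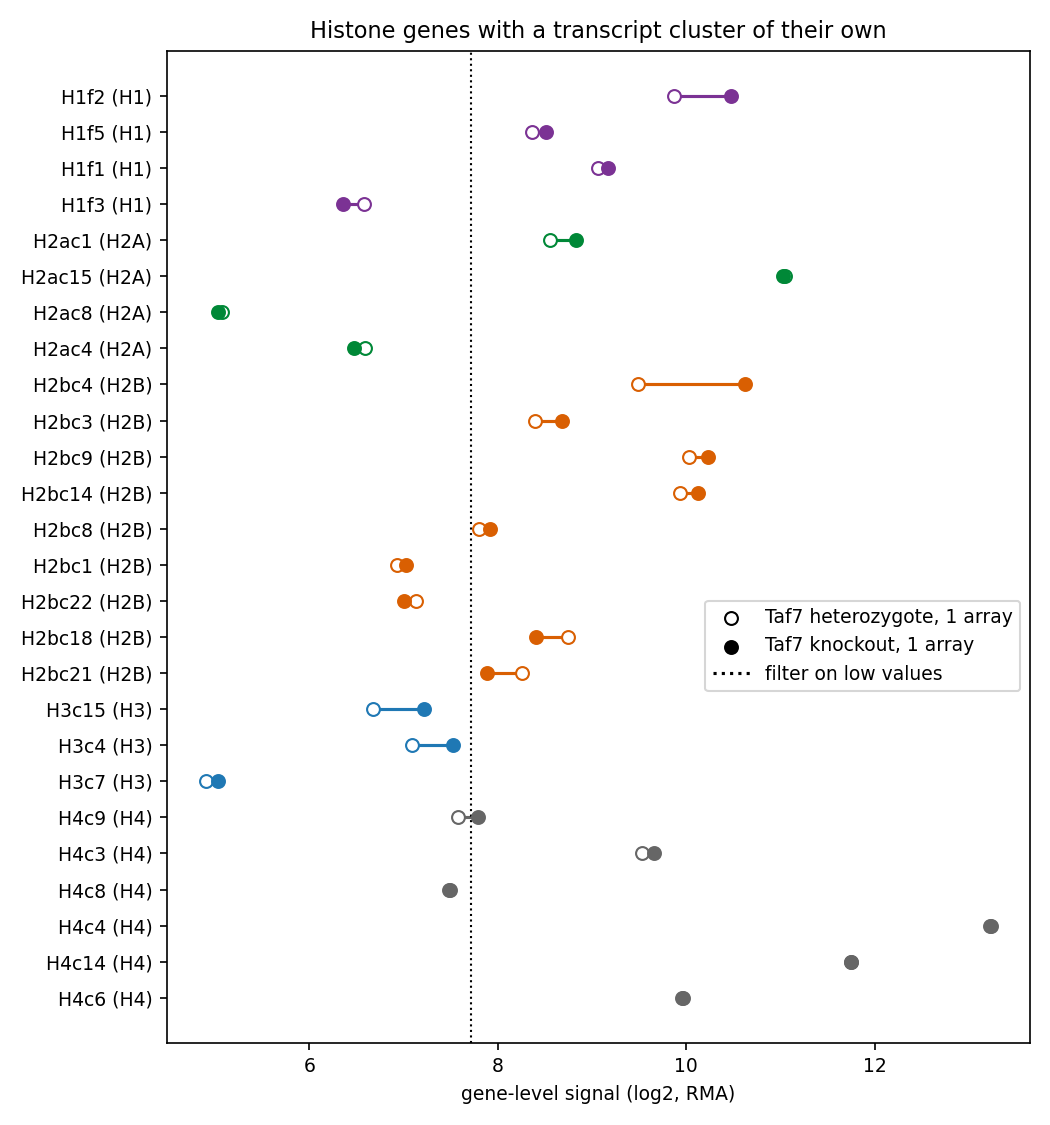
Signal of the 26 histone genes on each array (log2, horizontal axis), grouped by family; open points are the heterozygote, filled points the knockout, and the dotted line is the filter at 7.71. H2bc4, from 9.48 to 10.62, and H1f2, from 9.87 to 10.47, have the longest bars, and the points of most H4 genes nearly coincide.

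The 10 histone genes below the filter looked otherwise. There 6 were higher and 4 lower, or 60.0% higher with a median of 0.05, whereas 82.5% of all genes below the filter were higher with a median of 0.14. After removal of the loess trend, which took the median of all genes below the filter to 0.02, 4 of the 10 were higher and their median was -0.09, and after quantile normalization it was -0.04 with 4 higher. Over all 26 genes 69.2% were higher, close to the 60.7% of all genes measured, and the median was 0.11 against 0.06. Single genes below the filter differed from this, as H3c15 and H3c4 were higher by more than most genes.

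The H1 linker histones were higher in the knockout where they had signal above the filter. H1f2, which encodes linker histone H1.2, was at 9.87 and 10.47, so that the knockout was higher by 0.60, or 1.52-fold. It ranked 40th from the highest among 10457 genes and lay just past the 1.5-fold size, and short of it after centring on all genes measured. H1f5, encoding H1.5, was at 8.36 and 8.51, a difference of 0.15. H1f1, encoding H1.1, was at 9.07 and 9.17, a difference of 0.10. Both were within the central 95% of differences of all genes above the filter, -0.62 to 0.39, and H1f2 was outside it. H1f3, encoding H1.3, was below the filter at 6.58 and 6.35, a difference of -0.22. The H1 median was 0.12, and 0.17, 0.13 and 0.17 under centring, loess and quantile normalization. H1f4 shared a cluster with H2bc6 and had none of its own.

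The H2B genes, with 9 members the largest family here, spread the most. H2bc4, known before as Hist1h2bc, was at 9.48 and 10.62, so that the knockout was higher by 1.14, or 2.20-fold. Only 2 of the 10457 genes above the filter had a larger positive difference, since H2bc4 ranked 3rd. After centring, loess and quantile normalization its difference was 1.19, 1.22 and 1.21. The next H2B gene in order was at 0.28.

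H2bc3 was at 8.39 and 8.68, a difference of 0.28. H2bc9 was at 10.03 and 10.23, a difference of 0.20, and H2bc14 at 9.93 and 10.12, a difference of 0.19. H2bc8 was at 7.80 and 7.91, next to the filter, a difference of 0.11 that became 0.00 after removal of the loess trend. All of these encode core histone H2B in the large gene cluster and lay within the central 95% of all genes. H2bc18 was at 8.75 and 8.40, a difference of -0.35. H2bc21 was at 8.25 and 7.89, a difference of -0.36. These H2B genes, both of the smaller cluster, were the lowest of the 26, and they too lay within the central 95%. Below the filter, H2bc1, a testis form of H2B, was at 0.09, but at -0.05 after loess and just under 0 after quantile normalization, and H2bc22 was at -0.12. The H2B median was 0.11, and 0.16, 0.00 and 0.04 under centring, loess and quantile normalization.

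The H2A genes gave no common direction. H2ac1, a testis form of H2A, was at 8.55 and 8.83, a difference of 0.28. H2ac15 was at 11.05 and 11.03, a difference of -0.02 that turned positive under centring, loess and quantile normalization. Below the filter H2ac8 was at -0.04, but at 0.01 after centring, and H2ac4 at -0.12. The H2A median was -0.03, and -0.05 after loess and -0.01 after quantile normalization, but 0.02 after centring, so its sign depends on the scaling.

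All 3 H3 genes with a cluster of their own were below the filter. H3c15 was at 6.67 and 7.22, a difference of 0.54, H3c4 at 7.09 and 7.52, a difference of 0.43, and H3c7 at 4.90 and 5.03, a difference of 0.12. After removal of the loess trend these differences were 0.40, 0.29 and 0.04. H3c15 and H3c4 lay outside the central 95% of differences of the genes above the filter. Both are below the filter, though, where 82.5% of all genes were higher, with a median of 0.14. No such range was taken for genes below the filter, so these 2 were not compared with genes of like signal. The H3 median of 0.43 was the highest of the 5 families and became 0.29 under loess and 0.34 under quantile normalization. The clusters that name several H3 genes, given further on, were above the filter and had smaller differences than H3c15 and H3c4.

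The H4 genes differed little between the arrays, and the sign of most, though not of H4c3 and H4c9, depended on the scaling. H4c3 was at 9.53 and 9.66, a difference of 0.13. H4c4, at 13.22 and 13.23, and H4c14, at 11.74 and 11.74, differed by 0.01 and 0.00. H4c6 was at 9.97 and 9.95, a difference of -0.01, and turned positive under centring, loess and quantile normalization. Below the filter, H4c9 was at 0.21 and H4c8 at 0.01, which became -0.13 after loess and -0.08 after quantile normalization. The H4 median was 0.01, and 0.06, 0.06 and 0.09 under centring, loess and quantile normalization, but -0.05 after centring on all genes measured, when H4c4, H4c8 and H4c14 were negative too.

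**Figure D2:**
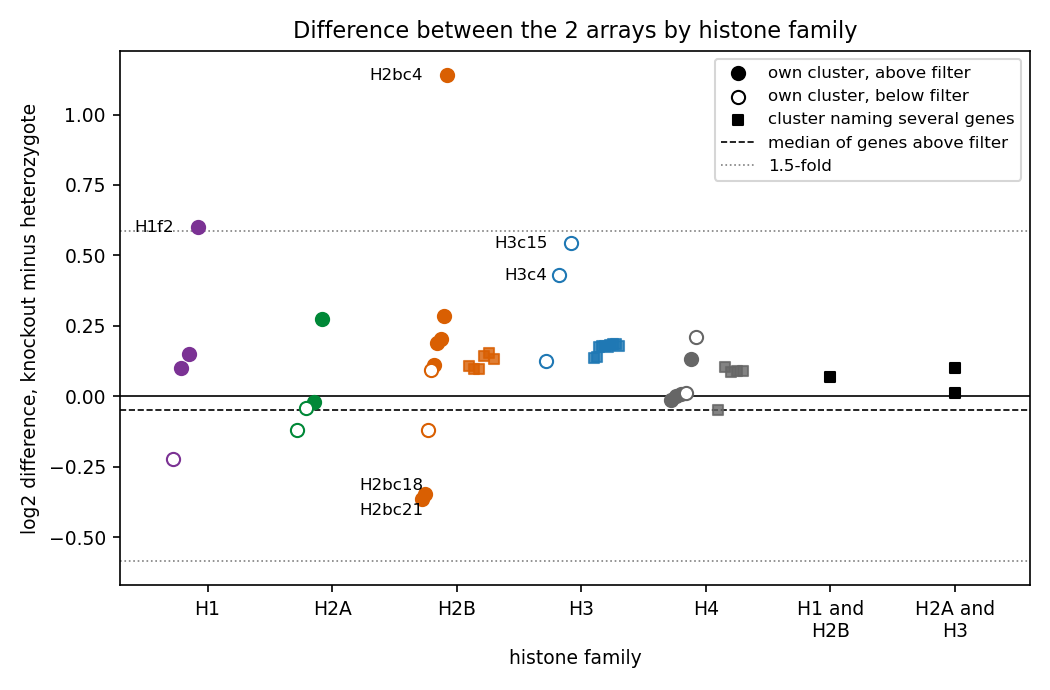
Log2 difference, knockout minus heterozygote, by histone family; circles are genes with a transcript cluster of their own (filled above the filter, open below), squares are clusters that name several histone genes, the dashed line is the median of all genes above the filter at -0.05 and the dotted lines mark 1.5-fold. H2bc4 at 1.14 stands apart within H2B, while the squares of each family lie close together.

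Clusters that name several histone genes mostly had small positive differences too, with little spread within a family. There were 26 such clusters, of which 24 had values of their own, since 2 repeated those of another cluster exactly. Of the 24, 23 were higher in the knockout and 1 lower, with a median of 0.13. Of all genes above the filter 40.9% were higher, and of all genes measured 60.7%. The probes of these clusters are shared among near-identical genes, so the clusters are not separate measurements, and the share of each named gene in the signal is unknown. Of the 26 genes with a cluster of their own, 18 are also named in clusters with several genes. How far their own probes match other histone genes was not examined.

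By family, the 10 clusters naming 12 H3 genes each had differences from 0.14 to 0.19 with a median of 0.18. Their values ran from 11.49 to 11.94 in the heterozygote and from 11.68 to 12.12 in the knockout, all above the filter. The 6 distinct H2B clusters lay between 0.10 and 0.15. All 7 of the H2B clusters, the repeated one included, name H2bc4 among 13 or 14 H2B genes, yet none approached the 1.14 of its own cluster. Of the 5 distinct H4 clusters 4 were between 0.09 and 0.10, and the cluster of H4c17 and H4c11, below the filter, was at -0.05. A pair of clusters naming H2A and H3 genes together, which also name variant H2A genes, was at 0.01 and 0.10, and the cluster of H2bc6 and H1f4 was at 0.07. The medians under centring, loess and quantile normalization, 0.18, 0.19 and 0.19, were of the same sign. After centring on all genes measured the median was 0.08 and 22 of the 24 were higher, against 30.5% of all genes above the filter.

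**Figure D3:**
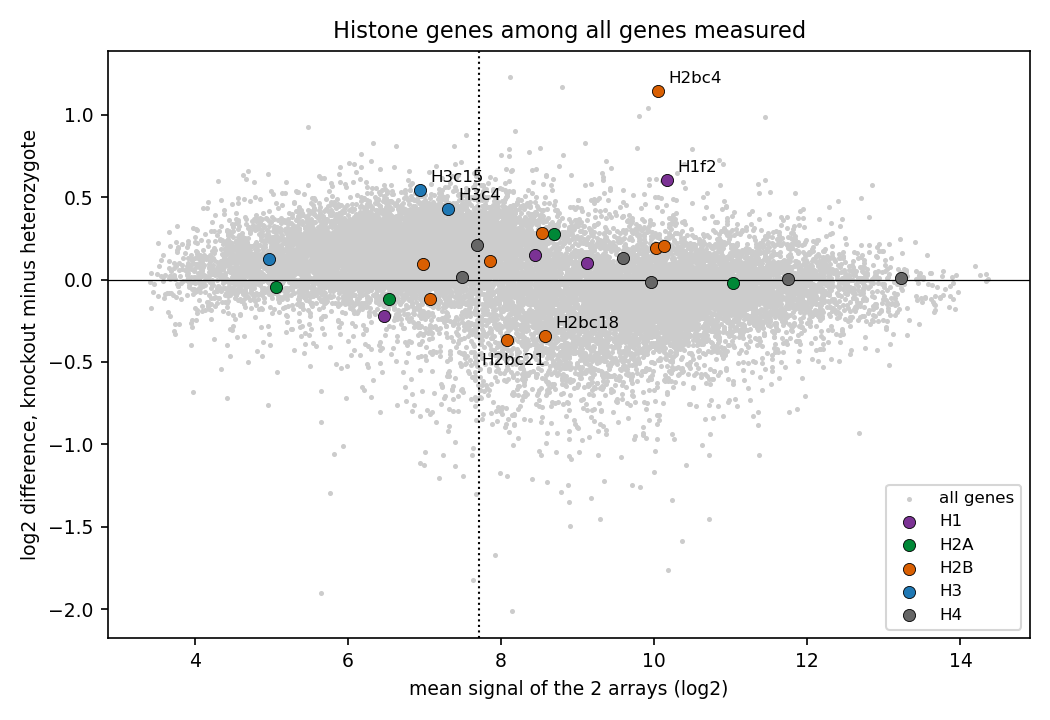
Mean signal of both arrays (log2, horizontal axis) against the log2 difference, knockout minus heterozygote, for all genes (grey) and the histone genes (coloured by family); the dotted line is the filter at 7.71. H2bc4 at 1.14 lies at the upper edge of the cloud, and the histone genes left of the filter lie on both sides of 0.

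The position of the genes was then compared with their differences. In the reference gene order, 22 of the 26 genes lie in the cluster on chromosome 13 and 4 in that on chromosome 3. Of the 13 genes above the filter on chromosome 13, 11 were higher in the knockout, with a median of 0.15. That is 84.6% higher, against 40.9% of all genes above the filter. The others, H2ac15 and H4c6, turned positive under centring, loess and quantile normalization. After centring on all genes measured H4c4 was negative as well. On chromosome 3, H4c14 was at 0.00, or -0.06 after centring on all genes measured, and H2bc18 and H2bc21 were lower. Within H2B alone, all 5 genes above the filter on chromosome 13 were higher and both on chromosome 3 were lower. Of all genes above the filter 59.1% were lower, so these few genes do not show a difference between the chromosomes. Of the 5, H2bc8 was at 0.00 after removal of the loess trend. Below the filter on chromosome 13, H2bc22 was at -0.12, and H2bc1 was at 0.09, or -0.05 after loess. H3c15, which lies next in order to H2bc21 among the histone genes of chromosome 3, was higher by 0.54 but below the filter.

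H2bc4 and H1f2, the highest members, lie near each other, with 3 protein-coding genes between them. These are H1f6, a testis linker histone, at 0.15 and below the filter; H4c3 at 0.13; and Hfe, a regulator of iron uptake, at -0.05 and below the filter. On the other side of H2bc4, the nearest gene with a cluster of its own was H4c4 at 0.01, with H2ac6, H1f4 and H2bc6 in between. Beyond H1f2, H2bc3 was at 0.28 and H2ac4 at -0.12. The stretch around H2bc4 thus held members near 0 as well as the highest ones.

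**Figure D4:**
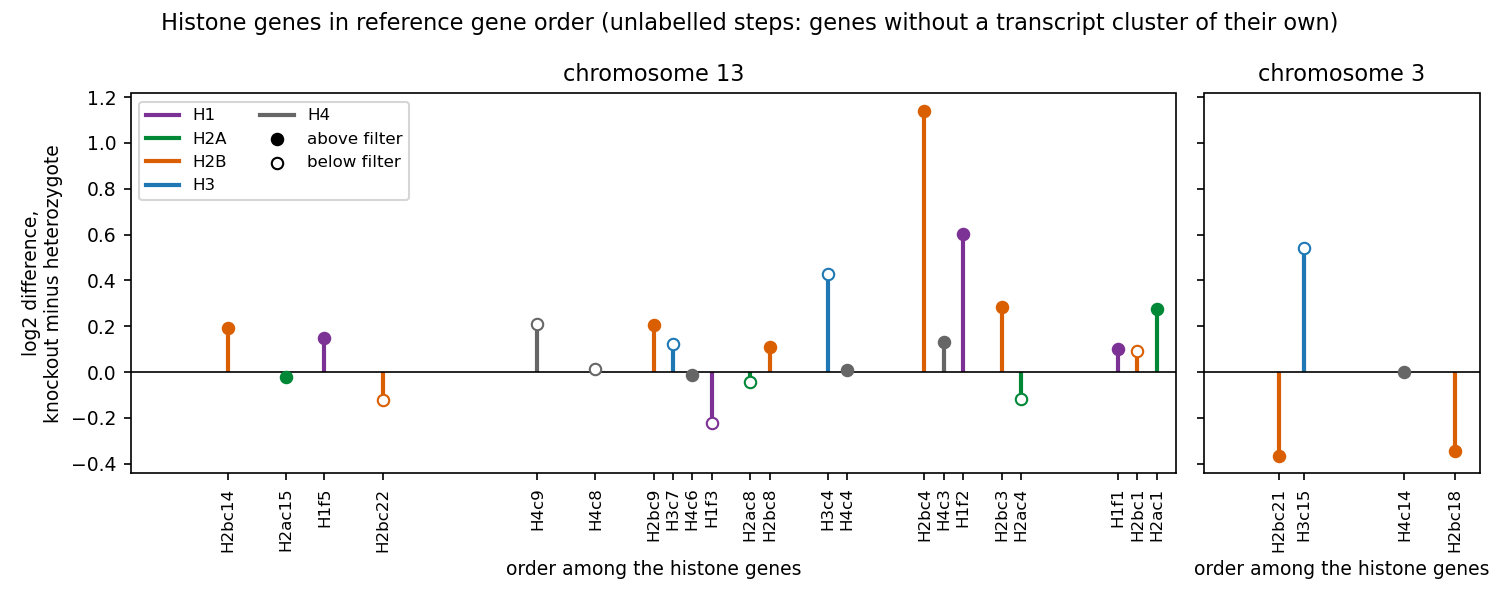
Log2 difference, knockout minus heterozygote, of the histone genes in reference order along the gene clusters of chromosomes 13 and 3 (horizontal axis: rank among the histone genes, not distance; filled points are above the filter). H2bc4 and H1f2 stand close together on chromosome 13 at 1.14 and 0.60, and H2bc21 and H2bc18 on chromosome 3 are at -0.36 and -0.35.

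Genes that work with the replication-dependent histones gave lists of either sign. Among variant histones, which are made outside DNA replication too, 5 of the 7 above the filter were higher and 2 lower. That is 71.4% higher, against 40.9% of all genes above the filter. The median of the 7 was 0.11 and none was at 1.5-fold. The highest were H2ax, the H2A variant phosphorylated at DNA breaks, from 9.63 to 9.96, Cenpa, the H3 variant of centromeres, from 9.67 to 9.94, and H4f16, from 9.27 to 9.39. H4f16 encodes H4 and was counted in this list although its older name, Hist4h4, is of the replication-dependent series. The lowest were H2az2 at -0.14, H2aj at -0.07, which was 0.01 after quantile normalization, and Macroh2a1 at 0.05. After centring on all genes measured the median was 0.05. Of the 31 factors of histone gene transcription and histone mRNA processing above the filter, 9 were higher and 22 lower. The share higher was 29.0%, against 40.9% of all genes above the filter. The median of the list was -0.05, close to that of all genes above the filter. That median turned to 0.00, 0.01 and 0.02 under centring, loess and quantile normalization and to -0.10 after centring on all genes measured. Npat, the coactivator of histone gene transcription at the start of S phase, went from 10.10 to 9.80, a difference of -0.30. Slbp, the stem-loop binding protein, went from 9.97 to 9.72, a difference of -0.25. With Npat, the lowest of the list were Cpsf2 at -0.35 and Clp1 at -0.29, both of the cleavage machinery. The highest were Srrt, which joins the cap-binding complex, at 0.16, Cpsf4 at 0.13 and Cstf2 at 0.11.

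Histone chaperones, which carry histones and place them on DNA, were mostly lower. Of 29 above the filter 7 were higher and 22 lower, or 24.1% higher against 40.9% of all genes, with a median of -0.12 that stayed negative, between -0.18 and -0.06, under the other scalings. Nap1l1, a chaperone of H2A and H2B, went from 10.49 to 9.96, a difference of -0.53. Asf1b, a chaperone of H3 and H4, went from 9.66 to 9.14, a difference of -0.52, and Chaf1b, a subunit of the assembly factor CAF-1, from 9.45 to 9.0, a difference of -0.45. The highest were Chaf1a, the large subunit of CAF-1, at 0.27, Hira at 0.14 and Atrx at 0.10. Chaf1a, at 7.66 and 7.93, lay below the filter value in the heterozygote and passed only through the knockout array. None of the 29 reached 1.5-fold.

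Genes of DNA replication and S phase had a median near 0. Of the 31 above the filter 14 were higher and 17 lower, or 45.2% higher against 40.9% of all genes above the filter. The median was -0.02, and its sign changed with the scaling, at 0.03 after centring, -0.03 after loess, 0.01 after quantile normalization and -0.08 after centring on all genes measured. Cdc45, of the replicative helicase, was at 0.30, Tk1, thymidine kinase, at 0.23 and Rrm2, of ribonucleotide reductase, at 0.20. Cdc45, at 7.62 and 7.91, passed the filter only through the knockout array. Rfc4, of the clamp loader, was 1.54-fold lower, from 9.57 to 8.94, and the next lowest were Ccne1, cyclin E1, at -0.45 and Fen1, the flap endonuclease, at -0.30. Pole, the catalytic subunit of DNA polymerase epsilon, was 1.56-fold lower, from 8.02 to 7.38, with a mean below the filter. Of the 19 genes of G2 and mitosis measured 3 were lower in the knockout and 16 higher, or 84.2% higher. That is close to the 82.5% of all genes below the filter, where 12 of the 19 lay. The median of the 19 was 0.11, against 0.14 for all genes below the filter. None of the 19 reached 1.5-fold. The 7 above the filter had a median of 0.20, and 0.13 to 0.25 under the other scalings, but Top2a, at 7.70 and 7.96, and Aurkb, at 7.71 and 7.96, passed only through the knockout array. Of the 7, the highest were Ccnb2, cyclin B2, at 0.31, Top2a, topoisomerase II alpha, at 0.26 and Aurkb, a mitotic kinase, at 0.25, and the lowest were Ube2c at 0.07, Cdc20 at 0.08 and Plk1 at 0.09. After loess Cdc20 was at -0.01 and Ube2c just under 0. The highest value of the 7 in the heterozygote was 8.22, so that all lay near the filter.

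**Figure D5:**
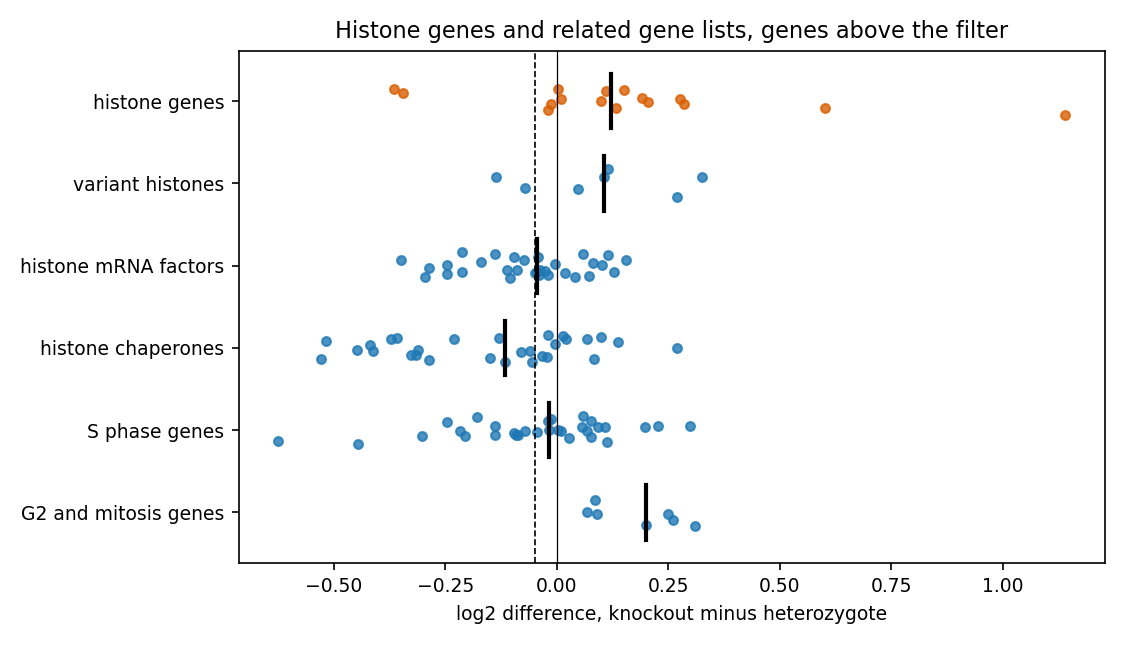
Log2 difference, knockout minus heterozygote, of the genes above the filter in the histone set (orange) and in 5 related gene lists (blue); black bars are list medians, the dashed line is the median of all genes above the filter, and vertical scatter within a row has no meaning. The histone and variant histone medians, 0.12 and 0.11, lie to the right of 0 and the chaperone median of -0.12 to the left, as they did under every scaling run.

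Markers of regulatory T cells, which are CD4 T cells themselves, and of other cell types were also compared between the samples. Of 10 regulatory T cell markers measured 9 were lower in the knockout, 7 of them at least 1.5-fold. Of all 19938 genes measured 7829 were lower, 403 of them at least 1.5-fold. The summed level of the marker list, on the log2 scale, was 14.06 in the heterozygote and 13.29 in the knockout. Nrp1 at -1.67, Ctla4, which was 2.82-fold lower, and Foxp3 at -1.06 were the lowest of the list. Nrp1, at 8.75 and 7.08, passed the filter only through the heterozygote array. The summed level of 10 B cell markers was 10.24 and 10.36, with 1 of them above the filter, and that of 11 myeloid markers 10.36 and 10.38, with none above it. For 6 erythroid markers it was 10.42 and 10.54, and for 10 markers of CD8 T and natural killer cells 11.75 and 11.46. For 7 plasma cell markers it was 11.91 and 11.51, with 4 of them lower in the knockout and 3 higher. Igha, at -2.01 the lowest of these, was at 9.1 and 7.1 and passed the filter only through the heterozygote array. All genes below the filter had a median difference of 0.14, and the sums were not corrected for it. The small rises of the B cell, myeloid and erythroid sums are therefore not shown to be shifts in cell content. The part of these shifts, and of the differences of the cell cycle genes, in the histone values was not tested.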

How the data were processed

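Log2 gene-level signals of 2 arrays were used as deposited; the authors made them with RMA in Affymetrix Expression Console version 1.1 and kept the core gene set, per the series design text. The sources used here do not state genome build or probe positions. Probe names came from a gene-level array's table, although an exon array is named in the design text. Of 35556 rows 21789 had 1 symbol, 1621 several and 12146 none; only rows with 1 symbol were named, and for the 999 genes with several clusters the cluster of highest mean was used. Members, gene lists and thresholds were chosen with earlier results of these data known. All 26 members matched the GRCm38.p6 gene table by identifier; that table gave names and the order of genes. Genes named were drawn from members, from the ends of each list and from genes past 1.5-fold. Differences are described at 1.5-fold and 2-fold; no test was run. Counting and scaling were run on simulated data with planted differences. Noise and trend were set in advance there, so this checks the code and not the unknown spread of these arrays. Alternatives were centring on the genes above the filter or, chosen after the data had been seen, on all genes, a loess trend (span 0.3), quantile normalization, other filters, other handling of clusters and means. Tools were statsmodels 0.14.6, pandas 2.3.3 and numpy 2.4.6, with matplotlib 3.10.9 for figures, under Python 3.11.15.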

Additional observations from a re-analysis of the deposited data

How the results depend on the processing

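No paired analysis was possible because neither group holds more than 1 sample, and for that reason none was left out in turn. Of the histone genes above each filter, 2 were past 1.5-fold and 1 past 2-fold under every setting run, except that centring on all genes measured left 1 past 1.5-fold; H3c15, below the filter, reached 0.59 after centring. No member has a second cluster, so averaging could not move them. After removal of the loess trend the H2B median was 0.0002 and the H3 median 0.2853, both toward 0, since the trend is positive at low signal. Of all genes, 71 were 1.5-fold higher or more after centring, 29 after centring on all genes measured and 91 without a filter. A filter at the 75th percentile left fewer genes, with 16 higher and 105 lower by 1.5-fold, and 2 higher and 12 lower by 2-fold. With no filter, which adds genes, the marker medians were 0.14 for B cells, -0.0398 for CD8 T and natural killer cells and -0.29 for plasma cells; the plasma cell median was -0.29 at the 75th percentile too, and that of CD8 T and natural killer cells -0.26 at the 25th. Of 243 values of single genes 10 moved by more than 0.1, all of genes near or below the filter and under loess or quantile normalization. The settings added with the data in view were centring on all genes measured, with a median of 0.06 for the histone genes above the filter, and the addition of genes with older histone names or the removal of H2bc4 or of the testis genes, with a median of 0.11 each.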

Other observations

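Some histone genes lie outside the naming rule although their older names in the reference table belong to the same series. They were chosen after their values were seen. H2aw, an H2A gene known before as Hist3h2a, was at 11.10 and 11.62 (heterozygote first), a difference of 0.52, outside the central 95% of genes above the filter. Its neighbour in name, H2bu2 (Hist3h2ba), was at 8.13 and 8.18, a difference of 0.05, and the pseudogene H2bu1-ps at 8.64 and 8.50, a difference of -0.14. H1f6, the testis linker histone, was below the filter at 6.85 and 7.0, a difference of 0.15. H4f16 (Hist4h4), counted with the variant histones above, has such an older name too and was at 9.27 and 9.39, a difference of 0.11.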
